A study of Mus musculus with 30 samples.

Results

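The constant distal regions described here are stretches of the mouse genome under 4000 bp wide that carried a peak of acetylated lysine 27 of histone H3 (H3K27ac) in both cell lines and both treatments, away from the transcription start sites (TSSs) of the GENCODE M21 basic annotation. They were chosen by joining overlapping or touching peaks of the 4 lists and keeping joined regions that touched a peak of every list, were under the width limit and did not come within 1 kb of a TSS of that annotation. The rule found 4512 regions among 37671 joined regions (12%), of which 329 (7.29%) had a TSS of the full annotation within 1 kb. Presence in a list, width and distance from a TSS were therefore fixed by the choice and are given below as description only.

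Of 30 samples in the series, the 9 from H3K27ac chromatin immunoprecipitation are used here. CK1750 and Tnm2, both mouse lung adenocarcinoma cell lines, were grown in the presence of DMSO, the vehicle, or of UNC0638 at 1 µM, which inhibits the H3K9 methyltransferases G9a and Glp. The labels give 3 samples for CK1750 with DMSO and 2 for each other group, and assign each group to 1 merged list of 27367 peaks (CK1750 with DMSO), 24601 (CK1750 with UNC0638), 30641 (Tnm2 with DMSO) and 18794 (Tnm2 with UNC0638). Separate replicates are fewer than samples, since 2 of the CK1750 DMSO samples are sequencing runs of replicate 1 and both CK1750 UNC0638 samples carry replicate number 2. With 1 list per group there is no spread between replicates, no difference between groups was tested, and the sequencing depth behind a list is unknown. CK1750 and Tnm2 are 1 cell line each, so what differs between them cannot be told apart from the tumor each came from, and in bulk chromatin a smaller share of cells carrying the mark and less of the mark per cell cannot be told apart.

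Acetylation of H3K27 marks the nucleosomes beside active enhancers and promoters. Enhancers are distal elements at which sequence-specific factors open chromatin, and their activity differs far more between cell types than that of promoters. AP-1 (dimers of Fos and Jun proteins, acting downstream of MAPK signalling), TEAD factors (which carry the YAP and TAZ coactivators) and FOXA factors (which open chromatin in lung epithelium) are known for binding distal elements of epithelial tumor cells. The question here is what the distal elements that kept a peak across cell line and inhibitor look like.

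The sequences below show the centre of regions that ranked highest in all lists. A region's rank was set by its lowest percentile, that is, the percentile of its best peak's score within each list (0 for the weakest peak, 100 for the strongest) in the list where that was lowest. Each sequence is the 200 bp around the midpoint, plus strand, mm10, read from the RefSeq GRCm38 genome, with words of AP-1 (TGAGTCA), TEAD (ACATTCC), FOXA (TGTTTAC), CEBP (TTGCNNAA), RUNX (TGTGGTT) and SP/KLF (CCCGCCC), on either strand, in capitals. The first 3 belong to the regions ranked 2, 10 and 4, with GC content of 66.5%, 69.5% and 54.5%. They do not span the base composition of the highest ranks. The central 200 bp held 39.0% GC at rank 7 and 78.5% at rank 9.
Region beside Foxa1, chr12:57539017-57539216: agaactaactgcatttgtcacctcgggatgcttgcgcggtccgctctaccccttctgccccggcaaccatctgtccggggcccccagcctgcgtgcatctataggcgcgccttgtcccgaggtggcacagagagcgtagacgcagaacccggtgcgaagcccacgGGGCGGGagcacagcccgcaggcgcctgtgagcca
Region beside Nr4a1, chr15:101246402-101246601: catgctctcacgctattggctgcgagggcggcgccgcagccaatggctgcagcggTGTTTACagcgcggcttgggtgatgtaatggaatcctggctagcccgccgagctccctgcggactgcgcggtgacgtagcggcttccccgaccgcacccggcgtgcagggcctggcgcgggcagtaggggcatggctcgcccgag
Region beside Ankrd1, chr19:36129135-36129334: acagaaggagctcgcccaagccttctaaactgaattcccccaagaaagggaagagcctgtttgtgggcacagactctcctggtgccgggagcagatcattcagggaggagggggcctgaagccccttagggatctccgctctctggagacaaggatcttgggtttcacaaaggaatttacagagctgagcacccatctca
None of the 10 highest-ranked regions held an AP-1 word within 500 bp around the midpoint. The next sequences are the highest-ranked regions that did hold one within the central 200 bp (ranks 12, 18 and 21), followed by a pair that held both an AP-1 and a TEAD word (ranks 366 and 534). They were chosen after the words had been counted.
Region nearest to Cebpb, chr2:167789504-167789703: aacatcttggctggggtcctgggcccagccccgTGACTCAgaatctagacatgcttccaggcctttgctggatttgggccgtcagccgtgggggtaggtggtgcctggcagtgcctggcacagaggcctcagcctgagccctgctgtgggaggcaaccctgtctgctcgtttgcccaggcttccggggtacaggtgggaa
Region nearest to Wdtc1, chr4:133353480-133353679: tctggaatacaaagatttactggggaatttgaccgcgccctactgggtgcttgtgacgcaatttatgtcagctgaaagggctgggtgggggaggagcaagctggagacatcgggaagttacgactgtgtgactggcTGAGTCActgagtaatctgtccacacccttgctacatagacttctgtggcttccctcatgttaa
Region nearest to Nanos3, chr8:84192134-84192333: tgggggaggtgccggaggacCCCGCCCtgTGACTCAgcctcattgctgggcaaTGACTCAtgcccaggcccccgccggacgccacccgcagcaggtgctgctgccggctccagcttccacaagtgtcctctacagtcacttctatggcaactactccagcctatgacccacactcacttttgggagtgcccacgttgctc
Region nearest to Fli1, chr9:32595318-32595517: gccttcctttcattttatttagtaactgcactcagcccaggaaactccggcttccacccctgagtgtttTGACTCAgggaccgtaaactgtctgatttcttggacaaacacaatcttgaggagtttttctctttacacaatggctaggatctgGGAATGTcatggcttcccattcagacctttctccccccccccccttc
Region nearest to Fbln2, chr6:91192860-91193059: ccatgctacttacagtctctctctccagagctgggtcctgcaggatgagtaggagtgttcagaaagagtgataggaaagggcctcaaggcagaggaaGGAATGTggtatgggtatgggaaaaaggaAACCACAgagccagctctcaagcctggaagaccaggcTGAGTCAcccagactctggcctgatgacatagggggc
The Nanos3-side region carried 2 AP-1 words and 1 SP/KLF word, and the Fbln2-side region carried a RUNX word between its TEAD and AP-1 words. A word is a description of the letters and does not show that a factor was bound.

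The regions were constant in presence but less so in extent. At least 1 base lay under a peak of all 4 lists in 4381 of the 4512 regions (97.1%, Wilson 95% interval 96.6 to 97.5%), and in the others the lists touched different stretches of the joined region. The bases covered in all lists at once had a median of 788 bp (interval of the median 775 to 806), against a median region width of 1739.5 bp. A single peak per list made up 2900 of the regions (64.3%). Just inside the width limit lay regions of 3994, 3992 and 3983 bp, and just outside it regions of 4001, 4003 and 4008 bp, so the limit fell within a continuous range of widths. The 3 regions nearest to the other limit lay 1002, 1003 and 1008 bp from a TSS (Rph3al, Tkfc and Mir99b), and those left out lay at 1000, 999 and 996 bp (Gm13844, Csrp1 and Nr4a3).

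Where the median region stood in the ranking depended on the peaks ranked. With every peak of a list ranked, their median percentile was 59.0 (interval 58.3 to 59.96) in CK1750 with DMSO, 58.8 (58.0 to 59.7) in CK1750 with UNC0638, 69.5 (68.8 to 70.3) in Tnm2 with DMSO and 52.5 (51.5 to 53.6) in Tnm2 with UNC0638. In the same order, it was 43.8, 46.0, 54.7 and 40.8 with only peaks of 100 or more ranked, and 26.3, 29.5, 34.0 and 36.7 among constant regions. Constant promoter regions of the same width limit (7776 regions touching a TSS window) stood higher in all 4 lists, with medians of 81.2, 78.1, 81.4 and 68.4. Scores under 100, close to the caller's cutoff of 50, were carried by 18.7%, 14.96%, 8.67% and 36.7% of the distal regions in the same order of lists, and 2337 of them (51.8%) reached 100 in every list.

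**Figure D1:**
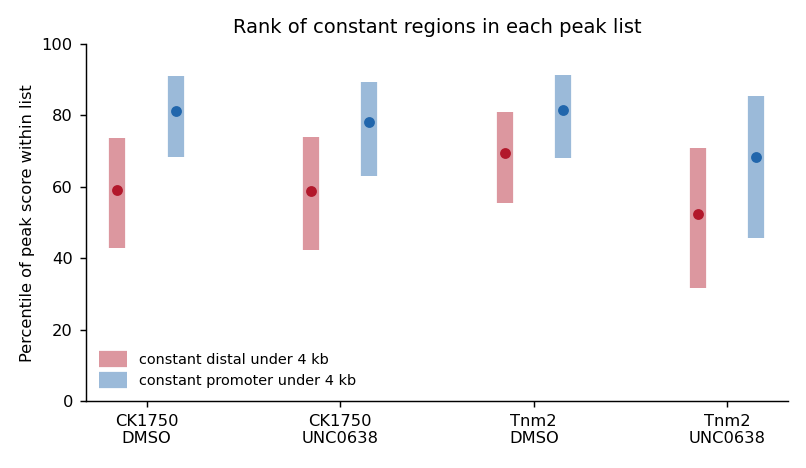
Percentile of the best peak's score within each list (vertical axis, 0 to 100) for constant distal regions under 4 kb (red, n = 4512) and constant promoter regions under 4 kb (blue, n = 7776); points are medians and bars span the quartiles. The distal medians lie between 52.5 and 69.5 and the promoter medians between 68.4 and 81.4, with the distal median lower in every list.

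A pair of regions tied for the highest lowest percentile (98.8). One lay in an intron of 3110039M20Rik on chromosome 12 (chr12:49399613-49402434), with scores of 3100, 3100, 3100 and 1657 in CK1750 with DMSO, CK1750 with UNC0638, Tnm2 with DMSO and Tnm2 with UNC0638. In the same order, the other, 5.67 kb from a TSS of Foxa1, a pioneer factor of lung epithelium, scored 3100, 3100, 3114 and 1681 (chr12:57537779-57540454). The region 38.9 kb from Myh9, the heavy chain of non-muscle myosin, scored 3100, 3100, 3091 and 1276 (chr15:77881118-77884447). All 3 stood above percentile 98 in every list, and 3100 is a score that many peaks share. The region 7.52 kb from Ankrd1, a target gene of YAP and TEAD, scored 3100, 3100, 2646 and 1166 (chr19:36127616-36130854). The region in an intron of Spag6 (chr2:18693598-18695158) scored 3100, 3092, 3100 and 1404, and the intergenic region 66.3 kb from Spag6 (chr2:18765300-18768040) scored 3100, 2825, 3006 and 1185. The others of the 10 lay in introns of Epb41l4a and Ica1l and between genes 11.1 kb from Chrm5 and 6.48 kb from Nr4a1, an immediate early nuclear receptor, with a lowest percentile between 96.9 and 98.0. Scores of different lists are not on 1 scale and are not compared here.

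Regions of the highest ranks were often CpG-rich. A window of 500 bp with GC content of at least 50% and an observed-over-expected CpG ratio of at least 0.6 was found in 201 of the 4512 regions (4.45%, interval 3.89 to 5.10%), in 26 of the 100 highest-ranked (26.0%, 18.4 to 35.4%) and in 1 of the 100 lowest-ranked. The constant promoter regions met it in 75.4% and distal regions present in 1 list in 1.13%. A TSS that the full GENCODE annotation adds to the basic set used by the rule lay within 1 kb of 52 of the 201 CpG-rich regions (25.9%, 20.3 to 32.3%) and of 277 of the 4311 others (6.43%, 5.73 to 7.197%). Such a TSS lay near 3 of the 10 and 14 of the 100 highest-ranked regions and near 6 of the 100 lowest-ranked. The CpG-rich regions also differed in their words, with SP/KLF in 58.7% (51.8 to 65.3%) against 7.47% (6.72 to 8.29%) of the others, and AP-1 in 4.98% (2.72 to 8.91%) against 24.6% (23.4 to 25.9%). The CpG-rich split and the look at the full annotation were added after the ranks had been seen.

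By position, 2535 regions lay in introns (56.2%, 54.7 to 57.6%), 1853 between genes (41.1%, 39.6 to 42.5%) and 124 in exons (2.75%, 2.31 to 3.27%). The median distance to the nearest TSS of any gene was 12.3 kb (11.8 to 12.9), and to that of a protein-coding gene 24.7 kb (23.5 to 25.7). Among distal regions under 4 kb present in 3, 2 and 1 lists, the intergenic share was 38.9% (37.2 to 40.7%), 38.4% (37.0 to 39.8%) and 35.5% (34.7 to 36.4%), and the interval lay apart from that of the constant regions only for 1 list. The nearest protein-coding gene had a peak of every list at a TSS for 65.0% of the constant distal regions (63.6 to 66.4%). The same share was 61.6% (59.8 to 63.3%), 60.1% (58.7 to 61.5%) and 61.0% (60.1 to 61.9%) for distal regions in 3, 2 and 1 lists.

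AP-1 words were more frequent in the constant distal regions than in other distal regions. The word TGAGTCA, on either strand, stood within the 500 bp around the midpoint in 1072 of 4512 regions (23.8%, 22.5 to 25.02%). It stood in 20.7% (19.3 to 22.2%), 18.2% (17.2 to 19.3%) and 15.9% (15.2 to 16.5%) of distal regions present in 3, 2 and 1 lists, in 5.70% (5.20 to 6.23%) of constant promoter regions, in 14.4% of all joined regions and in 8.19% (7.58 to 8.84%) of 7229 windows of the same length 3 kb beside the constant distal regions. The share rose with the number of lists. The interval of the constant regions lay apart from the others, while those of regions in 3 and 2 lists just met. Within 200 bp the order was the same, with 10.2% (9.39 to 11.2%), 8.95% (7.99 to 10.01%), 7.03% and 5.95% from 4 lists to 1, but the first intervals overlapped. Within 1000 bp the constant regions and those in 3 lists did not separate (38.8%, 37.4 to 40.2%, against 38.2%, 36.5 to 39.9%). Median width also rose with the number of lists, at 547, 884 and 1126 bp for 1, 2 and 3 lists and 1739.5 bp for the constant distal regions. A window of fixed length thus took in a smaller part of the wider regions, and the part of width in the word shares was not tested. The lists behind each class also differed. Of 11829 distal regions in 1 list, 5751 were found only in Tnm2 with DMSO. Of 3063 in 3 lists, 1774 lacked only Tnm2 with UNC0638. The part of line and list in the word shares was not tested. Constant distal regions of 4 kb or wider held an AP-1 word in the central 500 bp in 14.95% (11.4 to 19.4%), below the narrower ones. Regions present in more lists also stood higher in each list, so the shares were compared within bands of 25 percentile points. Each constant region entered a band of every list, so the bands of different lists are not independent comparisons. Over the 16 bands of the 4 lists, the share with AP-1 was higher in the constant distal regions than in the other distal regions under 4 kb in 13, with intervals apart in 5, and in none of the bands was it lower with intervals apart. In CK1750 with UNC0638, for instance, from percentile 50 to 75 it was 24.9% (23.0 to 26.9%) against 25.2% (22.3 to 28.3%), and in Tnm2 with DMSO 22.7% (20.9 to 24.6%) against 19.1% (17.4 to 20.9%).

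TEAD words followed a different course. Within 500 bp, ACATTCC was found in 11.3% of the constant distal regions (10.4 to 12.3%). It was found in 8.06% (7.15 to 9.08%), 8.48% (7.73 to 9.30%) and 8.10% (7.62 to 8.60%) of distal regions in 3, 2 and 1 lists. In this window the interval of the constant regions lay apart from those of the rest, which overlapped. It also lay apart within 200 bp, at 4.85% (4.26 to 5.52%). Within 1000 bp the constant regions did not separate from those in 2 lists (19.8%, 18.7 to 21.002%, against 18.007%, 16.95 to 19.1%). They did separate there from those in 3 and 1 lists. Within the same bands of rank, which are not independent, the share in 500 bp was higher in the constant regions in 16 of 16, with intervals apart in 3. The constant distal regions of 4 kb or wider, at 10.96% (7.91 to 14.997%), did not separate from the narrower ones. It was found in 7.42% of all joined regions. Windows 3 kb beside the regions held it in 7.14% (6.57 to 7.75%) and constant promoter regions in 4.24% (3.82 to 4.71%). TEAD words were found in 11.1% of regions with an AP-1 word (9.36 to 13.1%) and in 11.4% of those without (10.3 to 12.47%). Matches were also counted around the midpoint of the peak with the highest percentile over the lists, rather than the region midpoint. There AP-1 reached 0.549 and 0.550 matches per kb in both central bins of 200 bp and lay at 0.198 and 0.185 in the outermost bins. TEAD reached 0.265 and 0.222 at the centre and lay at 0.132 and 0.140 at the edges. In regions of 1 list, AP-1 stood at 0.376 and 0.367 in the bins at -300 and 300 bp, against 0.336 and 0.350 in the central bins.

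**Figure D2:**
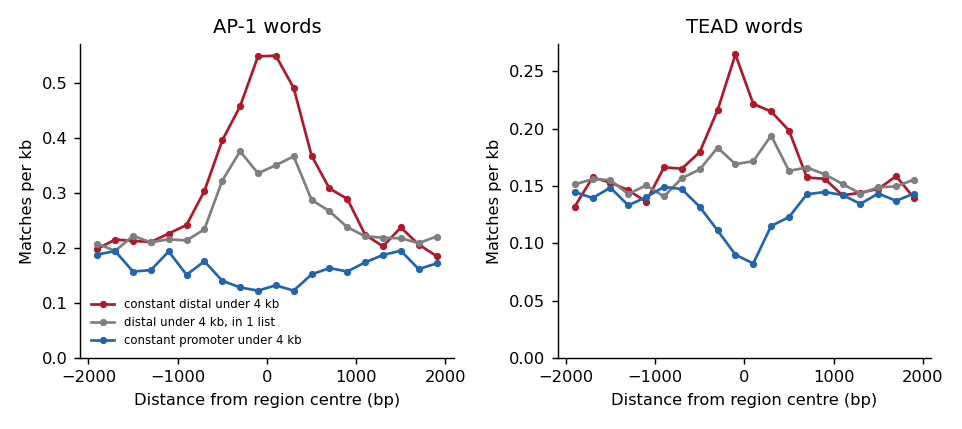
Matches per kb of the AP-1 word (left) and TEAD word (right) in bins of 200 bp for constant distal regions under 4 kb (red, n = 4512), distal regions under 4 kb present in 1 list (grey, n = 11829) and constant promoter regions under 4 kb (blue, n = 7776). The horizontal axis, labelled region centre, is the distance (bp) from the midpoint of the region's peak with the highest percentile over the lists. Both words peak in the central bins of the constant distal regions, AP-1 at 0.550 matches per kb and TEAD at 0.265, while constant promoter regions dip there.

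FOXA, CEBP, RUNX and NKX2-1 words had overlapping intervals in the constant distal regions and in distal regions of 1 list. FOXA words were found in 9.02% (8.22 to 9.89%) against 8.56% (8.07 to 9.08%) in regions of 1 list, CEBP in 18.1% (17.0 to 19.2%) against 17.6% (16.9 to 18.3%), RUNX in 12.1% (11.2 to 13.1%) against 11.95% (11.4 to 12.6%), and NKX2-1 (CACTTGA) in 6.74% (6.04 to 7.51%) against 6.77% (6.33 to 7.24%). FOXA was above its level of 6.86% (6.30 to 7.47%) in the windows 3 kb away, whereas CEBP and RUNX were not. SP/KLF words rose from 5.36% (4.97 to 5.78%) in 1 list to 9.75% (8.92 to 10.7%) in the constant distal regions and 49.0% (47.9 to 50.2%) in constant promoter regions. The NRF2 word TGACNNNGC, which can overlap an AP-1 word, was found in 23.2% (22.0 to 24.5%) against 19.96% (19.2 to 20.7%) in 1 list. The SRF CArG box was found in 3.13% (2.66 to 3.67%) against 2.31% (2.05 to 2.59%), and the CRE word TGACGTCA in 0.465% (0.305 to 0.711%, 21 regions) against 0.194% (0.130 to 0.292%, 23 regions). Over all joined regions the shares were 7.04% for FOXA, 15.7% for CEBP, 10.1% for RUNX, 5.74% for NKX2-1, 19.05% for SP/KLF, 21.1% for NRF2, 2.31% for the SRF CArG box and 1.01% for CRE. Across all joined regions of the series, GC content had a median of 51.4%, and the constant distal regions had 49.6% (49.4 to 49.8%) against 64.2% in constant promoter regions.

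**Figure D3:**
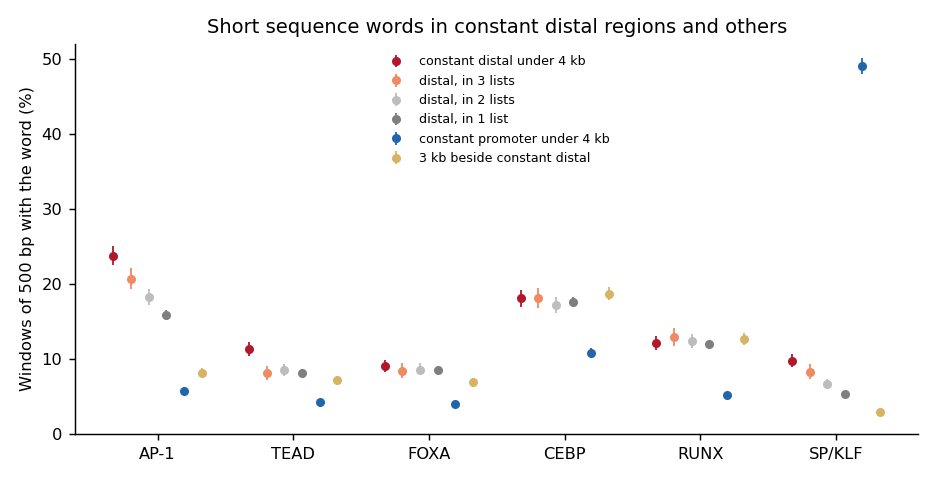
Share of 500 bp windows (%, vertical axis) holding each of 6 words (horizontal axis) in constant distal regions under 4 kb, distal regions in 3, 2 and 1 lists, constant promoter regions and windows 3 kb beside the constant distal regions; bars are Wilson 95% intervals. AP-1 falls stepwise from 23.8% to 15.9% with fewer lists, TEAD is higher only in the constant distal regions (11.3%) among these 6 sets, and SP/KLF is highest in constant promoter regions (49.0%).

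The share with an AP-1 word was 21.9% in the weakest of 4 bands of constant regions and 26.9% in the strongest band. When the regions were divided into 4 bands of 1128 by lowest percentile, AP-1 was found in 21.9% (19.6 to 24.4%), 22.4% (20.1 to 24.95%), 23.8% (21.5 to 26.4%) and 26.9% (24.4 to 29.5%) from weakest to strongest, and the intervals of all bands overlapped, those of the weakest and the strongest only just. TEAD stayed between 10.3% and 12.1%.

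The order of the regions differed more between cell lines than between treatments. Across the 4512 regions, Spearman's rho of the percentiles was 0.81 between the CK1750 lists and 0.73 between the Tnm2 lists, and 0.49 to 0.58 between lists of different lines. Over the 7776 constant promoter regions it was 0.93 and 0.89 within lines and 0.80 to 0.84 between them. These are descriptions across regions that share a library in each list, and regions are not replicates.

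To see which constant regions leaned to a line, percentiles were taken among the 12885 regions present in all lists, so that every list ranked the same regions. By the mean over both treatments, 414 regions stood at least 20 points higher in CK1750, 946 at least 20 points higher in Tnm2, and 3152 within these limits. TEAD words were found in 16.4% of the regions higher in CK1750 (13.2 to 20.3%), 11.1% of those in between (10.0 to 12.2%) and 9.83% of those higher in Tnm2 (8.09 to 11.9%). RUNX words ran the same way, at 14.98% (11.9 to 18.7%) on the CK1750 side and 9.41% (7.71 to 11.4%) on the Tnm2 side. CEBP words ran the opposite way, at 14.5% (11.4 to 18.2%), 17.8% (16.5 to 19.2%) and 20.5% (18.1 to 23.2%), and the intervals of the lines overlapped slightly. FOXA words were found in 7.25% (5.12 to 10.2%) and 10.6% (8.77 to 12.7%) of the regions higher in CK1750 and in Tnm2, and AP-1 in 25.1% (21.2 to 29.5%) and 22.3% (19.8 to 25.1%), both within overlapping intervals. All 20 words were compared in this way, and those named here were picked after their values were seen.

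**Figure D4:**
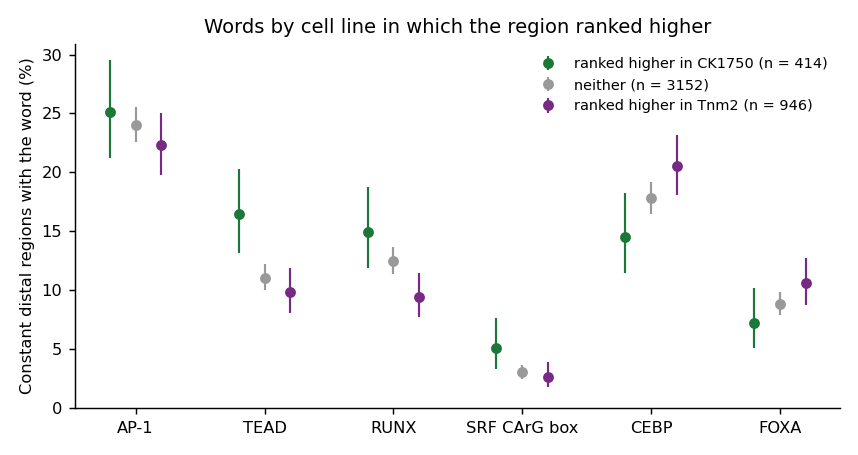
Share of constant distal regions under 4 kb holding each of 6 words (%, vertical axis) among regions ranked at least 20 percentile points higher in CK1750 (green, n = 414), within 20 points (grey, n = 3152) or at least 20 points higher in Tnm2 (purple, n = 946); bars are Wilson 95% intervals. TEAD and RUNX words decline from the CK1750 side (16.4% and 14.98%) to the Tnm2 side (9.83% and 9.41%), while AP-1 intervals overlap.

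Percentiles within whole lists were also set against every joined region with a peak in both lists. With DMSO, 304 constant distal regions stood at least 20 points higher in CK1750 than in Tnm2 (6.74%, beside 9.61% of 17802 regions) and 1234 at least 20 points lower (27.3%, beside 15.5%). With UNC0638, 1165 stood higher in CK1750 (25.8%, beside 24% of 14122 regions) and 528 lower (11.7%, beside 7.27%). The direction turned with treatment in this ranking, in which lists of different length are compared. With percentiles among the 12885 constant regions it did not turn: 10.4% with DMSO and 13.6% with UNC0638 stood higher in CK1750, and 23.4% and 25.02% stood lower, beside 12.4%, 14.8%, 12.7% and 14.4% of all constant regions.

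Between UNC0638 and DMSO, as many constant distal regions rose as fell in the ranking of CK1750. There 369 regions rose by at least 20 points (8.18%, 7.41 to 9.01%, beside 5.75% of 18627 regions with peaks in both lists) and 369 fell (8.18%, beside 9.5%). In Tnm2, 92 rose (2.04%, 1.67 to 2.49%, beside 1.62% of 15661 regions) and 1593 fell (35.3%, 33.9 to 36.7%, beside 31.8%), a share close to the background. Among constant regions only, 9.18% rose and 3.83% fell in CK1750, and 13.4% rose and 9.80% fell in Tnm2, beside 5.47%, 4.75%, 8.68% and 9.17% of all constant regions. In that ranking 75 regions (1.66%) rose in both lines and 20 (0.443%) fell in both, beside 0.846% and 0.636% of all constant regions. In the rankings of whole lists the balance was the other way, with 19 (0.421%) rising and 162 (3.59%) falling in both, beside 0.217% and 2.86% of all constant regions. These shares describe single lists, and no test between treatments was possible.

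The regions with the largest move in both lines, chosen for that move, were low in the ranking of at least 1 list. The region 19.0 kb from Klf6, which encodes a zinc finger factor (chr13:5841172-5842504), went from percentile 35.4 to 77.2 in CK1750 and from 0.152 to 47.9 in Tnm2. The region in an intron of Trpv3, an ion channel gene of epithelia (chr11:73283622-73285044), went from 4.06 to 35.5 and from 2.19 to 37.3. The region 38.3 kb from Rnf19a, a ubiquitin ligase (chr15:36321409-36323376), went from 22.5 to 61.0 and from 25.2 to 55.2. In the other direction, the region in an intron of Cntnap5b (chr1:100230757-100232165), 458 kb from a TSS of it, went from 76.1 to 19.0 and from 53.8 to 4.80, and it has a near-identical copy elsewhere in the genome. The region 163 kb from Olig3 (chr10:19191946-19193062) went from 45.3 to 0.191 and from 58.3 to 6.02, and the intergenic region 1219 kb from Kcnt2 (chr1:141465187-141466357) from 55.7 to 12.49 and from 63.8 to 4.43.

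Covered bases moved in different directions in the lines. In CK1750 the bases under UNC0638 peaks were at least 1.5 times those under DMSO peaks in 836 regions (18.5%, 17.4 to 19.7%, beside 13.8% of regions with peaks in both lists), and the reverse held in 131 (2.90%, beside 2.85%). In Tnm2, 270 regions were wider (5.98%, 5.33 to 6.71%, beside 5.26%) and 691 narrower (15.3%, 14.3 to 16.4%, beside 12.1%). Constant promoter regions were wider with UNC0638 in 6.08% in CK1750 and narrower in 11.1% in Tnm2. The lists also differed in their number of peaks, given above, and the part of depth, which is unknown, was not tested.

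In CK1750 the direction of the rank move went with base composition. Among the 173 regions that fell by at least 20 points among constant regions, median GC content was 51.0% (50.2 to 52.2%) and SP/KLF words were found in 20.8% (15.4 to 27.5%). Among the 414 that rose, they were 48.4% (47.8 to 49.0%) and 4.59% (2.96 to 7.06%). Regions that moved less had 49.6% and 9.81%. In Tnm2 the order was not the same, with median GC content of 48.6% (48.0 to 49.2%) in the regions that fell and 49.2% (48.6 to 49.8%) in those that rose, and SP/KLF in 12.2% (9.49 to 15.6%) and 9.08% (7.04 to 11.6%). The part of base composition in these moves was not tested.

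The regions were spread over many genes. Within 50 kb of a TSS, 20.3% of 21755 protein-coding genes had at least 1 constant distal region and 2.32% had at least 3. Genes with a peak of every list at a TSS had at least 1 in 29.6% (28.6 to 30.6%) and other protein-coding genes in 14.8% (14.2 to 15.4%). Smad7, Myc and Tns3 were the nearest gene of 11 regions each, Klf14 of 9, and Bhlhe40, Chn2, Lpp, Sh3bp4 and Trib1 of 8 each, and 1700001O22Rik was the first by name of the genes with 7. Myc encodes a growth-promoting transcription factor. Its regions lay from 41.1 to 462 kb from a TSS, 5 of them in introns of Pvt1, and the lowest percentile ran from 4.41 to 86.8. Those of Klf14 lay 107 to 204 kb away, 5 of them in introns of the noncoding gene Lncpint. Nearest by position does not show which gene a region acts on.

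Neighbouring regions formed groups in places. Linked by gaps of at most 12.497 kb, 2908 regions stood alone, 1604 (35.6%) had a neighbour, and 11 groups held 5 or more. A group of 7 lay in an intron of Sh3bp4, an endocytosis adaptor (chr1:89089386-89125236), with regions whose lowest percentile ran from 19.8 to 90.1 and none with an AP-1 word. The group at Fam129b and Lrsam1 (chr2:32866614-32928891) also held 7 regions, from 1.89 to 71.3. Groups of 5 lay in introns of Rbpms, an RNA-binding protein gene (0.675 to 73.3), in introns of Susd1 (15.98 to 75.7) and between genes beside Dapl1 (19.5 to 94.5).

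Most epithelial marker genes had a constant distal region. Of 8 epithelial markers, 7 had a constant distal region within 50 kb and 3 had at least 3, beside 20.3% and 2.32% of all protein-coding genes. Cdh1, encoding E-cadherin, had 7, from -41.7 to 43.5 kb of a TSS. The strongest lay in an intron of Cdh1 (chr8:106639862-106643594) and scored 906, 867, 730 and 384 in the order of lists above, and the weakest (chr8:106635030-106636009) scored 132, 60.3, 117 and 53.1. Krt8 and Krt18, the paired keratins of simple epithelia, are neighbours and shared 5 regions. That at -2.94 kb of Krt18 (chr15:102023303-102027170) scored 1161, 2582, 1130 and 633. Cldn7 was the epithelial marker with 0 regions. By contrast, 0 of 6 leukocyte markers and 1 of 4 endothelial markers (Pecam1, with 1 region) had any, and none of those 10 genes had a peak of every list at a TSS. Such a peak stood at 4 of 8 epithelial markers and also at 4 of 10 mesenchymal markers, beside 37.3% of all protein-coding genes.

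Lung lineage genes had regions at 6 of 9 markers and at least 3 at 3 of them, beside 20.3% and 2.32% of all protein-coding genes. A peak of every list stood at a TSS of 3 of the 9. Foxa1 had 3 within 10.1 kb downstream of a TSS, and all ranked high, with lowest percentiles of 89.5, 98.8 and 91.5. Sftpb, encoding surfactant protein B, had 5. The strongest, at -11.2 kb (chr6:72291951-72294786), scored 2251, 2187, 2329 and 1031 and carried an AP-1 word, and the lowest percentiles of the 5 ran from 43.4 to 95.9, although no peak of every list stood at a TSS of Sftpb. Scgb1a1, the secretoglobin of club cells, had 3, all in introns of the neighbouring gene Ahnak. Nkx2-1, the lung lineage factor, had 1 (chr12:56518999-56522092), with percentiles of 81.2 and 78.1 in CK1750 and 96.0 and 94.9 in Tnm2. Sftpc, Sftpd and Hopx had 0. Mesenchymal markers had regions at 2 of 10, near the share of all genes, and the region at Snai1 stood at percentiles of 58.9 and 57.1 in CK1750 and 95.4 and 96.9 in Tnm2.

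Genes of the AP-1 and YAP/TEAD families had regions at 8 of 12 and 9 of 13. A peak of every list lay at a TSS of 11 of the 12 and 13 of the 13, and 29.6% of all genes with such a peak had a region, beside 20.3% of all protein-coding genes. Maff, a small Maf protein, had 5 within 50 kb, with lowest percentiles from 11.6 to 70.3 and an AP-1 word in 2 of them. Some of these lay nearest to Baiap2l2, Pla2g6 or Tmem184b. Fos had 3, all weak in at least 1 list, with lowest percentiles of 1.76, 21.4 and 24.5. Tead4 had 3 in its introns, and the highest-ranked of them (chr6:128223575-128227068) scored 1532, 1882, 1120 and 352. Ccn1, a secreted matricellular target of YAP, had 3, and Ccn2 had 2. The other genes of both lists had 0 to 2 each, with 0 for Jun.

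Genes of the TGF-beta pathway and of the extracellular matrix included several with 3 or more regions. Of 10 TGF-beta pathway genes, 6 had a region, with 5 at Smad7, the inhibitory Smad, 4 at Smad3, a transducer of the signal, and 3 at the corepressor Ski. The strongest of Smad3 (chr9:63720347-63723798) scored 446, 586, 1051 and 364. Of 23 genes of extracellular matrix and adhesion, 10 had a region and 6 had at least 3. Itga3, an integrin that binds laminin, had 4, Itga6, Plau and Timp2 had 3 each, and the 3 of Col4a1 and Col4a2 are the same regions, all in introns of Col4a2. Those of Timp2, in part in its introns, lay nearer to a TSS of Cep295nl or Lgals3bp. The Myc family (3 of 6) and the Nrf2 pathway (4 of 9) had no gene with 3 or more. The members of these lists were mostly genes with a peak of every list at a TSS (9 of 10 for the TGF-beta pathway and 15 of 23 for extracellular matrix and adhesion, for instance). Genes with such a peak have constant distal regions more often than others. At least 1 region was found at 29.6% of them and at least 3 at 4.22%, beside 20.3% and 2.32% of all protein-coding genes.

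**Figure D5:**
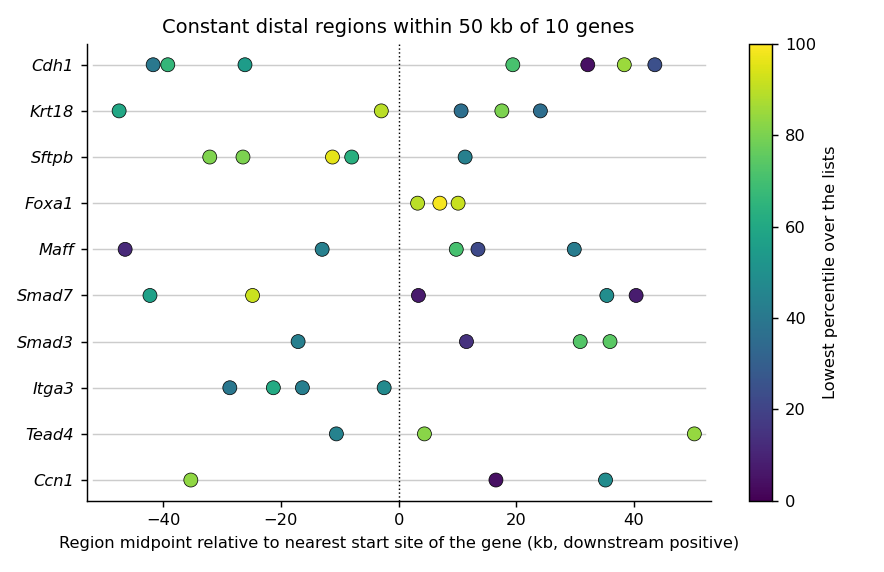
Constant distal regions under 4 kb within 50 kb of 10 genes, plotted by the position of the region midpoint relative to the nearest TSS of the gene (kb, downstream positive); colour gives the lowest percentile over the 4 lists. Cdh1 has 7 regions on both sides of its TSS, and the 3 regions of Foxa1 all lie within 10.1 kb downstream at lowest percentiles of 89.5 to 98.8.

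Enzymes that add or remove H3K9 methylation, markers of tumor-propagating cells and a list of 10 genes compiled around G9a had at most 2 regions per gene. Of those 10 genes, 5 had a region, beside 20.3% of all protein-coding genes, and none had a peak of every list at a TSS. The study's text names Ly6a, Mmp10, Mmp13, Ctse, Anxa10 and Lcp1 of them beside G9a, and Ly6a alone of these had a region. It does not name Mcpt2, Mcpt8 and Wnt7a, and names Mcpt4 as an antibody only. Ly6a, encoding Sca-1, had 1 at 29.5 kb (chr15:74967254-74968963), with percentiles of 81.1 and 79.0 in CK1750 and 58.2 and 20.5 in Tnm2 with DMSO and UNC0638. Mcpt2 and Mcpt4, mast cell protease genes, share 2 regions, 1 of which (chr14:56056304-56059194) is also that of Mcpt8, so the 3 genes rest on the same 2 regions, and Wnt7a had 1. Of 10 H3K9 enzymes, 4 had 1 region each and 0 had more. A peak of every list stood at a TSS of 8 of the 10, and 29.6% of all genes with such a peak had a region. The region of Ehmt2, which encodes G9a, lay at 45.2 kb, with Neu1 as its nearest gene (11.2 kb). Those of Suv39h1 and Kdm4a lay at 46.6 and -49.8 kb, and that of Kdm3b lay in its own intron. Of 7 markers of tumor-propagating cells, 5 had a region, and Cd24a had 1 in an intron of F930017D23Rik (chr10:43603888-43606724) with scores of 545, 829, 512 and 154.

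The share of constant regions varied by chromosome. Constant distal regions made up between 15.9% (chromosome 10) and 20.95% (chromosome 2) of the distal regions under 4 kb on each autosome, and 11.9% (8.92 to 15.7%, 42 of 353) on the X chromosome. Near-identical copies elsewhere in the genome, covering at least 80% of the region at 95% identity or more, were found for 49 of the 4512 regions, for which the authors' mapping could have placed reads at either copy.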

How the data were processed

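H3K27ac chromatin immunoprecipitation and sequencing had been done by the authors in CK1750 and Tnm2 cells. According to the study's methods and the submitters' processing notes, reads were mapped to mm10 with Bowtie2 and H3K27ac peaks found by MACS 1.4.2, with 1e-05 as the limit on P. The deposited lists hold positions and a score, -10 log10 of the P value, so that 50 is the cutoff. The score grows with depth and with the control, and whether input DNA served as control is not stated. Scores were therefore used as ranks within a list. The libraries behind each list are not given, and the labels and the paper give different replicate numbers, which was not resolved. H3K9me2 and input DNA samples were not analysed here.

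Peaks of chromosomes 1 to 19 and X were joined when they overlapped or touched. TSSs were those of the GENCODE M21 basic annotation (77198 positions). A region's percentile was that of its best peak. Windows of 500 bp around region midpoints were read from RefSeq GRCm38, whose chromosome ends no peak passed, and searched for 20 words on both strands. Windows 3 kb to each side that met no joined region served as the surroundings. Profiles of matches per kb were centred instead on the midpoint of the region's peak with the highest percentile over the lists. Named regions were the 10 with the highest lowest percentile and the 3 with the largest rise and fall in both lines (smaller of the moves). Named genes were the 10 nearest to most regions, those at the 5 largest groups, and list genes with at least 3 regions within 50 kb. The result of 1 gene list is not reported here. Other genes were named after their values were seen (Nkx2-1, Snai1, Ly6a, Cd24a, Ehmt2, Pecam1, Ccn2, Jun, Wnt7a, the Mcpt genes and list genes at 0). The regions and gene lists were chosen with earlier results of these data known. Shares have Wilson 95% intervals and medians have order-statistic intervals. Both cover counting error only. No p-value was computed. Joining, word search and intervals were tested on simulated data. Python 3.11.15, numpy 2.4.6, pandas 2.3.3, scipy 1.17.1 and minimap2 2.31 (copies) were used.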

Additional observations from a re-analysis of the deposited data

Results flagged for a closer look

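The median ratio of covered bases with UNC0638 to those with DMSO lay on opposite sides of 1 in the lines. Over the 4512 constant distal regions it was 1.14 in CK1750 (interval 1.13 to 1.15) and 0.937 in Tnm2 (0.928 to 0.945). Over all regions with peaks in both lists of a line it was 1.10 (18627 regions) and 0.940 (15661 regions). Each value comes from 1 list per group, the intervals cover counting error over regions only, and the difference between the lines was not tested.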

How the results depend on the processing

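No paired analysis was possible because each group has 1 merged list, and for the same reason no replicate could be left out. Of 59 alternatives, each judged on its own value, 14 stayed within the interval or within 1.5 times the main count, 43 moved and 2 changed sign. Among constant regions, ranked so after seeing the data, the median move with UNC0638 was 2.24 points in CK1750 (0.25 in the whole list) and turned to 2.43 in Tnm2 (-12.6), and the median gap of CK1750 to Tnm2 was -4.69 with DMSO (-7.90) and turned to -4.42 with UNC0638 (4.79). The number of regions was 2378 with scores of at least 100 and 2923 with each list covering 50% of the region. The other settings gave between 3458 (equal numbers of the highest-scoring peaks) and 5102 (protein-coding TSSs only), with 4183 under the full annotation and 4463 without near-identical copies, both added after seeing the data.

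The intron share was 50.3% with protein-coding genes only, the distance 24.7 kb with protein-coding TSSs, and the share with a constant promoter peak at the nearest gene 68.8% with 2.5 kb windows. AP-1 was found in 10.2% (200 bp) and 38.8% (1000 bp), and GC content was 50% and 48.9%. Median percentiles with only peaks of 100 or more ranked came to 43.8 (DMSO) and 46.0 (UNC0638) for CK1750, and for Tnm2 to 54.7 and 40.8. Among constant regions they came to 26.3 (DMSO) and 29.5 (UNC0638) for CK1750, and for Tnm2 to 34.0 and 36.7.

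In CK1750, wider regions were 41.8% at 1.2-fold, 6.83% at 2-fold and 25.9% by the widest single peak, and narrower ones 10.3% and 0.576% at 1.2-fold and 2-fold. In Tnm2 the same settings gave 16.4%, 1.57% and 8.80% wider, and 33.1% and 5.08% narrower. At 10 points, at 30 points and among constant regions, rises in CK1750 made up 20.3%, 3.32% and 9.18%, with falls at 20.7%, 3.28% and 3.83%. For Tnm2 rises made up 5.03%, 0.754% and 13.4%, with falls at 56.5%, 21.2% and 9.80%, so that rises outnumbered falls only in the ranking among constant regions. Groups of 5 or more numbered 3 with gaps of 5 kb and 36 with 25 kb. Depth is unknown, and weak peaks near the cutoff limit which regions count as constant.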
